A study of Homo sapiens with 23 samples.

Results

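The genes described here are 10 transcription factor genes of blood cells: the RUNX genes RUNX1, RUNX2 and RUNX3, their partner CBFB, and the ETS genes ETS1, ETS2, ETV6, ELF1, FLI1 and GABPA. They were taken by symbol from a deposited count table of 28395 genes, with the ETS genes SPI1 and SPIB left out of the choice. All 10 passed the filter on low counts, which kept 16468 genes. The study sequenced RNA from 4 human multiple myeloma cell lines (malignant plasma cells in culture), H929, MM1S, OPM2 and RPMI-8226, to profile them after CRISPR inactivation of IRF4, a transcription factor of plasma cells. In each line, cells with an inducible guide RNA against IRF4 were compared with cells that carried a guide named EV in the labels, whose meaning is not given in the sources used here. All 8 groups received doxycycline for 48 hours, which turned the guides on, and each group had 3 libraries except the EV group of MM1S with 2. The data hold 1 IRF4 guide and 1 time point, so effects of IRF4 loss, of later changes and of cuts elsewhere cannot be told apart. The labels do not say whether replicates were separate cultures, and the p-values then measure the spread between these libraries, which may be technical.

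RUNX proteins bind DNA through the Runt domain at the core letters TGTGGT, and CBFB, which does not touch DNA itself, holds them in the binding form. RUNX1 is needed for blood stem cells, RUNX2 is the master factor of bone-forming cells, and RUNX3 acts in T, NK and B cells. ETS proteins share a domain that reads a GGAA core. ETS1 restrains the passage of B cells to plasma cells, FLI1 acts in B cells and megakaryocytes, ELF1 is a lymphoid activator, and ETV6 is a repressor best known as a fusion partner of RUNX1 in childhood leukaemia. IRF4 itself binds many sites together with the ETS proteins encoded by SPI1 and SPIB.

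Promoter sequences of RUNX2 and RUNX3 are shown first, since they carry the motif that RUNX factors read. RefSeq promoter windows (build GRCh38.p14, 250 bases before to 50 after a start site) were found for 7 of the 10 genes, 12 windows in all, and not for CBFB, ETS1 and FLI1. The RUNX letters TGTGGT, searched on both strands, were in 3 of these 12 windows and in 13.1% of the 35114 windows of all genes. These 3 were the distal windows of RUNX2 and RUNX3 and 1 window of ETS2. The RUNX1 window held none, and its start site at 34888699 lies inside the gene, whose 5′ end is at 35049302. The distal windows of RUNX2 and RUNX3 each held a tandem pair, 2 copies of TGTGGT with the letters TC between them, which overlaps the single motif. This pair was in 3 of the 35114 windows, those of RUNX2, RUNX3 and OR52N2. Its letters and spacing were fixed before the search and no other spacing was searched, so its rarity is a description and no test. The stretches of 30 bases that hold it are given on the gene's strand, 5′ to 3′, with the pair in capitals as it reads on that strand (the reverse complement of the letters searched).
RUNX2, chr6:45328338-45328367, + strand, 9 to 38 bases after the start site: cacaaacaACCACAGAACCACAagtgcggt
RUNX3, chr1:24965120-24965149, - strand, 139 to 110 bases before the window's start site: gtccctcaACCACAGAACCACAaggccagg
The RUNX3 window is that of a start site at 24965010, inside the annotated gene, so its stretch spans the 5′ end of the gene at 24965138.
The ETS letters CCGGAAGT were in 1 of the 12 windows, that of GABPA, and in 4.14% of all windows. The match, in capitals, also lay on the reverse strand.
GABPA, chr21:25734894-25734923, + strand, 78 to 49 bases before the start site: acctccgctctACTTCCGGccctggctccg
The composite letters that ETS and IRF proteins read together (GGAA, any 2 bases, then GAAA) and the IRF letters (GAAA, any 2 bases, then GAAA), again on both strands, were in 0 of the 12 windows and in 2.82% and 3.57% of all windows. A match is a description of the sequence and was not tested for binding.

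Libraries held 6907390 to 28486960 counts, and log2 levels of libraries of 1 group correlated at 0.988 to 0.995 (22 pairs, across genes, which are not independent replicates). Levels are given as TMM-normalised CPM (counts per gene brought to 1 library total, with trimmed mean factors between libraries) with their standard deviation (SD). A change is the log2 ratio of the IRF4 guide to the EV guide in the same line, with its standard error (SE). The change of IRF4 mRNA was -1.58 (H929), -1.37 (MM1S), -1.10 (RPMI-8226) and -0.66 (OPM2, where the ranges of the groups overlapped), each called lower. Summed plasma cell markers were at 4088 to 18901 CPM per library, against 20.2 to 258 for 10 B cell markers, 0.119 to 132 for 10 T and NK cell markers, 6.78 to 90.7 for 10 myeloid markers, 0.241 to 4.25 for 10 erythroid and megakaryocyte markers (PF4 at 0 throughout) and 2.77 to 149 for 10 stromal, endothelial and bone markers (COL1A2 and CDH5 at 0 throughout). The highest of these markers of other cells were PECAM1, an endothelial and leukocyte adhesion molecule, at 120 CPM in H929 with the EV guide, BLK, a B cell kinase, at 115 CPM in RPMI-8226 with the IRF4 guide, and CD3E, a chain of the T cell receptor complex, at 107 CPM in H929 with the IRF4 guide. The 10 plasma cell markers include IRF4, the target of the guide, so 1 of the falls counted in each line is its own. Of the 10 plasma cell markers 7 fell and 1 rose in H929 (26.1% and 32.9% of all genes tested) and 5 fell in MM1S (15.2%). In OPM2 9 fell (20.2%), and in RPMI-8226 4 fell and 2 rose (14.7% and 19.2%). Their sum, with JCHAIN the highest marker, rose with the IRF4 guide in H929, from 15730 to 17691 CPM up to 17732 to 18901 CPM. It also rose in RPMI-8226, from 4088 to 4488 up to 4524 to 5645 CPM. In OPM2 it fell, from 11878 to 13533 down to 9830 to 10811 CPM, and in MM1S the guides overlapped. IRF4 is part of this sum in every line, with means of 1640 and 1039 CPM in OPM2 and 2199 and 736 CPM in H929 (EV guide, then IRF4 guide). The B cell sum was higher with the IRF4 guide in every line. In H929 it went from 21.1 to 28.9 CPM up to 92.7 to 110 CPM, and in MM1S from 25.7 to 27.6 up to 57.3 to 72.3. In OPM2 it went from 20.2 to 25.6 up to 59.9 to 68.3, and in RPMI-8226 from 116 to 125 up to 210 to 258. With the IRF4 guide, most of the sum was 1 marker in MM1S (CR2, 57.5 CPM) and OPM2 (CD79B, 59.7 CPM). Of the 10 markers, 2 were at 0 in that group of MM1S and 4 in that of OPM2. Of the 7 B cell markers tested, 5 rose in H929 (32.9% of all genes tested) and 5 in RPMI-8226 (19.2%). In MM1S and OPM2 1 each rose, near the shares of all genes (19.4% and 23.3%). With limma on the deposited log2 RPKM the count in RPMI-8226 was 2. The part of these markers in the changes below was not tested. In bulk RNA, fewer cells of a type and less RNA per cell cannot be told apart.

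The 10 genes did not share 1 direction, and the size of most changes differed between lines. The changes of CBFB were negative in all 4 lines and those of ELF1 and FLI1 positive, though not called in each. H929 and OPM2 were the lines of rises: RUNX3 rose 6.46-fold in H929 and 2.51-fold in OPM2, ETS1 rose 4.74-fold in H929, and ETS2 rose 3.11-fold in OPM2. CBFB fell in H929, MM1S and OPM2, and RUNX2 rose in H929 but fell in MM1S and RPMI-8226. No gene of the 10 was called the same way in all 4 lines, where 5.14% of all genes tested were called higher and 3.83% lower. At such low shares this is no result about the 10 genes.

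In H929, 6 of the 10 genes were called higher and 1 lower at an edgeR quasi-likelihood adjusted p under 0.05, where 58.9% of all genes tested were called (32.9% higher and 26.1% lower). In OPM2, 7 were higher and 1 lower, where 43.5% of all genes were called (23.3% and 20.2%), and with limma on the deposited log2 RPKM the split was 7 and 0. In MM1S, 0 were higher and 3 lower, where 34.6% of all genes were called (19.4% and 15.2%). In RPMI-8226, 2 were higher and 2 lower, where 33.9% were called (19.2% and 14.7%). The counts called in either direction in H929, MM1S and RPMI-8226 are thus near the background. The MM1S count became 1 without IRF4 replicate 3 or without EV replicate 2, and that of RPMI-8226 became 2 without IRF4 replicate 1 or replicate 3.

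On the average of the 4 lines, 6 genes rose and 2 fell, where 57.7% of all genes were called (32.6% and 25.1%). Their median change was 0.30, against 0.11 over all genes tested, and in the single lines it was 0.48 (H929), -0.09 (MM1S), 0.33 (OPM2) and -0.05 (RPMI-8226), against 0.10, 0.07, 0.03 and 0.04 over all genes. The size of the change differed between lines for 9 of the 10 (F test with 3 degrees of freedom), all but GABPA, where 48.0% of all genes differed. EV levels differed between lines for 10 of 10, where 93.1% of all genes did.

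The 2 guides' libraries did not overlap for 6 genes higher and 1 lower in H929 (34.4% and 27.7% of all genes tested), 3 and 3 in MM1S (31.4% and 24.0%), 7 and 1 in OPM2 (28.0% and 23.9%) and 2 and 2 in RPMI-8226 (24.8% and 18.4%). Between pairs of lines, the change differed for 7 of the 10 genes from H929 to OPM2 and from H929 to RPMI-8226 (22.9% and 34.8% of all genes), and for 4 from H929 to MM1S (25.7%). It was higher in OPM2 than in RPMI-8226 for 6, where 8.57% of all genes were, and differed for 5 from MM1S to OPM2 (18.4%) and 3 from MM1S to RPMI-8226 (20.2%). The EV level differed for all 10 from RPMI-8226 to H929 and to OPM2 (75.1% and 72.9% of all genes), for 9 from H929 to OPM2 (65.4%), and for 8 from MM1S to H929, OPM2 and RPMI-8226 (63.1%, 61.4% and 67.7%). Shares near these backgrounds are no result about the 10 genes.

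**Figure D1:**
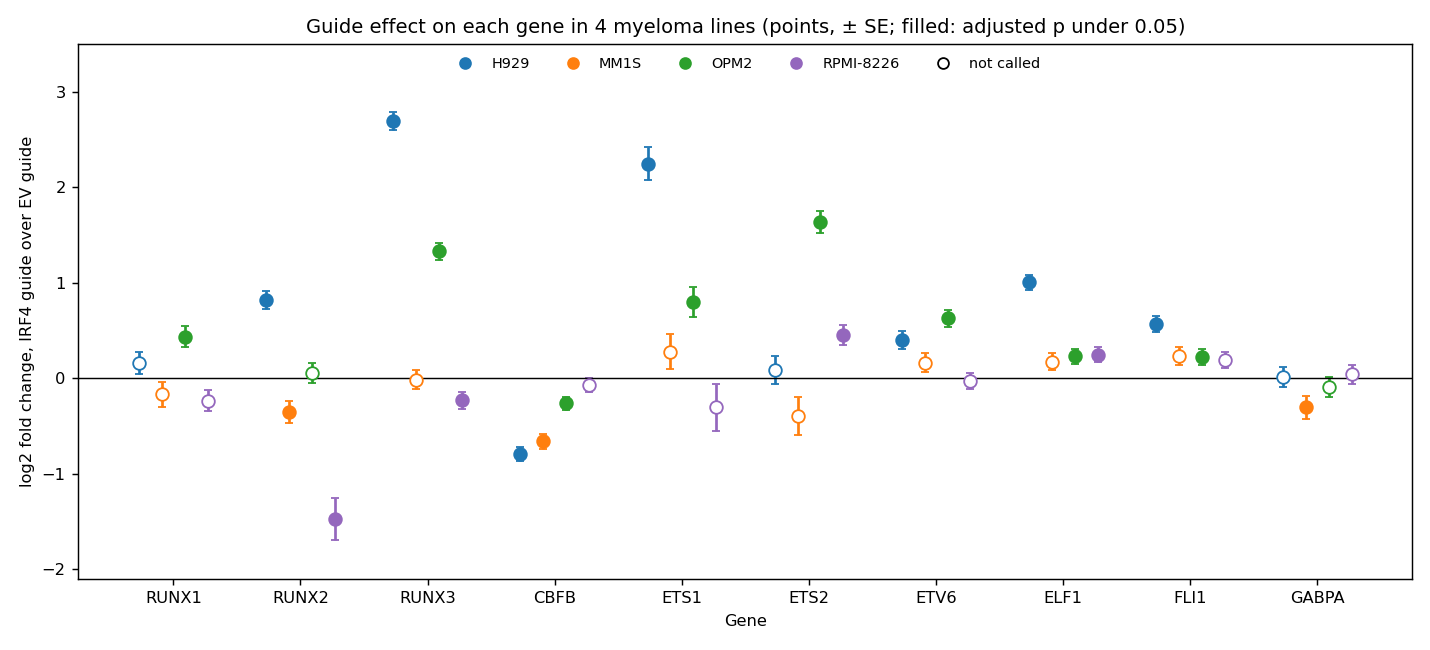
Guide effect as a log2 fold change, IRF4 guide against EV guide (vertical axis), for the 10 genes (horizontal axis) in each of the 4 lines (colours), with error bars of 1 SE and filled points where the adjusted p was under 0.05. RUNX3 and ETS1 stand highest in H929 (2.69 and 2.24), ETS2 in OPM2 (1.64), and RUNX2 lies lowest in RPMI-8226 (-1.47).

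RUNX3 (Entrez 864, chr1:24899511-24965138, - strand), the RUNX factor of cytotoxic T cells that also acts in B cells, showed the widest rise of the 10 genes. In H929 it was at 37.4, 34.1 and 42.3 CPM with the EV guide and at 230, 246 and 265 CPM with the IRF4 guide. In OPM2 it was at 56.2, 62.3 and 63.1 CPM with the EV guide and at 153, 150 and 152 CPM with the IRF4 guide. The groups lay far apart in both lines, with changes of 2.69 ± 0.10 (edgeR adjusted p = 4.20e-19) and 1.33 ± 0.09 (adjusted p = 1.16e-12).

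In MM1S, RUNX3 was at 143 and 140 CPM with the EV guide and at 133, 148 and 140 CPM with the IRF4 guide, so the groups overlapped and no change was detected (-0.01 ± 0.10, edgeR adjusted p = 0.977). In RPMI-8226 it was at 129, 146 and 123 CPM with the EV guide and at 114, 129 and 96.7 CPM with the IRF4 guide. These ranges overlapped, and the fall was just under the threshold (-0.23 ± 0.09, adjusted p = 0.0458). It was lost under 12 of 32 alternatives. Among them were limma on the deposited log2 RPKM (-0.20, adjusted p = 0.120) and the line fitted alone (-0.26, adjusted p = 0.0686). The call also ended without RPMI-8226 IRF4 replicate 1 (-0.23, adjusted p = 0.0892) or 3 (-0.15, 0.250) and without EV replicate 1 (-0.25, 0.0671) or 2 (-0.16, 0.263). Leaving out single libraries of other lines ended it too, namely H929 IRF4 replicate 2, MM1S IRF4 replicate 2, MM1S EV replicates 2 and 3, and OPM2 IRF4 replicates 1 and 2 (adjusted p = 0.0505 to 0.0550).

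The EV level of RUNX3 was highest in MM1S (141 ± 2.49 CPM, n = 2) and RPMI-8226 (133 ± 11.6, n = 3), which did not differ beyond their spread (edgeR adjusted p = 0.457). OPM2 followed at 60.5 ± 3.78 CPM and H929 at 37.9 ± 4.10 (n = 3 each), each lower than the line before it. The lines with the lowest EV level were thus those in which RUNX3 rose, and with the IRF4 guide H929 had the highest level of the 4 lines. The change differed in 5 of the 6 pairs of lines, H929 exceeding OPM2 by 1.36 ± 0.13 (adjusted p = 5.55e-09), and the pair in which no difference was detected was MM1S and RPMI-8226.

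The summed T and NK cell markers were higher with the IRF4 guide in all 4 lines. Most of the sum was CD3E in H929 and MM1S, at 107 and 9.44 CPM with the IRF4 guide. In H929 the sum over 10 markers was 14.4 to 17.1 CPM with the EV guide and 117 to 132 CPM with the IRF4 guide. In OPM2 it went from 0.119 to 1.01 CPM up to 4.15 to 5.74 CPM. Of the 9 markers tested, 7 rose in H929 and 4 in OPM2 (32.9% and 23.3% of all genes tested), and none fell. With limma on the deposited log2 RPKM 6 and 3 rose there. The markers at 0 in a group numbered 3 with the EV guide and 1 with the IRF4 guide in H929, and 4 and 3 in OPM2. In MM1S, where no change of RUNX3 was detected, the sum went from 4.69 to 5.02 up to 10.2 to 12.3 CPM. There 1 marker was called higher (19.4% of all genes), and on the log2 RPKM 0 were higher and 1 lower. In RPMI-8226, where RUNX3 was called lower, it went from 5.16 to 7.94 up to 9.213 to 11.05 CPM. There 2 markers were called higher, where 19.2% of all genes were. The counts in MM1S and RPMI-8226 are thus near the background. The summed myeloid markers were also higher with the IRF4 guide in H929, from 26.6 to 34.0 CPM up to 54.2 to 59.1 CPM. In MM1S they went from 19.4 to 25.3 up to 35.2 to 39.5 CPM, and in OPM2 and RPMI-8226 the guides overlapped. The part of these markers in the change of RUNX3 was not tested.

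RUNX2 (Entrez 860, chr6:45328330-45551082, + strand), the bone-forming RUNX factor, moved in opposite directions in different lines. In H929 it was at 307, 276 and 324 CPM with the EV guide and at 534, 508 and 556 CPM with the IRF4 guide, all 3 above the EV libraries (0.82 ± 0.10, edgeR adjusted p = 1.41e-08). In OPM2 it was at 42.2, 45.7 and 48.8 CPM with the EV guide and at 44.1, 46.1 and 51.4 CPM with the IRF4 guide, where no change was detected (0.05 ± 0.10, adjusted p = 0.729). In MM1S it was at 112 and 97.2 CPM with the EV guide and lower, at 89.7, 79.7 and 75.4 CPM, with the IRF4 guide.

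That fall in MM1S (-0.35 ± 0.11, edgeR adjusted p = 0.0145) rested on few libraries. It was no longer called without IRF4 replicate 3 (-0.30, adjusted p = 0.0578), without EV replicate 2 (-0.24, 0.251) or with limma on the deposited log2 RPKM (-0.36, 0.215). In RPMI-8226, RUNX2 was barely present, at 3.33, 2.74 and 2.41 CPM with the EV guide (81, 70 and 22 counts) and at 1.20, 0.571 and 1.42 CPM with the IRF4 guide (25, 14 and 32 counts). The groups did not overlap, and the fall was the largest of the 10 genes (-1.47 ± 0.22, adjusted p = 5.20e-06), from a level at which few counts set the value.

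EV levels of RUNX2 spanned the widest range of the 10 genes. H929 was highest at 302 ± 24.2 CPM (n = 3), then MM1S at 105 ± 10.7 (n = 2), OPM2 at 45.5 ± 3.33 and RPMI-8226 at 2.83 ± 0.466 (n = 3 each). Every neighbour in this order differed, and H929 lay 107-fold above RPMI-8226. The change with the guide differed in 5 of 6 pairs of lines, most between H929 and RPMI-8226 (2.29 ± 0.24, edgeR adjusted p = 6.28e-09).

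SUPT3H, which encodes a subunit of a histone acetyltransferase complex, overlaps RUNX2 on the opposite strand, and the sources used here do not say whether reads were counted by strand. Its counts came to 7.65% of those of RUNX2 over all libraries. In RPMI-8226 its level was comparable to that of RUNX2, at 4.30 ± 0.910 CPM with the EV guide and 2.73 ± 0.443 with the IRF4 guide (n = 3 each), and it fell there as well (-0.62 ± 0.18, edgeR adjusted p = 0.00963). In H929, where RUNX2 rose, SUPT3H changed by -0.30 ± 0.15 (adjusted p = 0.0949). Reads of the 2 genes in their overlap cannot be told apart.

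RUNX1 (Entrez 861, chr21:34787801-35049302, - strand), the stem cell and leukaemia RUNX factor, rose in OPM2. There it was at 184, 219 and 179 CPM with the EV guide and at 250, 287 and 245 CPM with the IRF4 guide, with no overlap (0.43 ± 0.11, edgeR adjusted p = 0.00225). In RPMI-8226 the groups did not overlap either, at 147, 128 and 118 CPM against 115, 114 and 106 CPM, but the change was not called (-0.23 ± 0.11, adjusted p = 0.109). It was called when that line was fitted alone (-0.26, adjusted p = 0.0293) and with no filter on low counts (-0.25, 0.0299).

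In H929, RUNX1 was at 104, 87.8 and 106 CPM with the EV guide and at 111, 88.1 and 134 CPM with the IRF4 guide (0.16 ± 0.11, edgeR adjusted p = 0.231). Without IRF4 replicate 2, the lowest library with that guide, the change was 0.29 (adjusted p = 0.0204). Without IRF4 replicate 3, the highest, the change was -0.02 (adjusted p = 0.913), so its direction rested on that library. In MM1S it was at 79.4 and 89.3 CPM against 74.3, 79.6 and 71.1 CPM (-0.17 ± 0.13, adjusted p = 0.359), and at -0.22 when fitted alone (adjusted p = 0.0445). EV levels ran from 194 ± 21.8 CPM in OPM2 to 131 ± 14.4 in RPMI-8226, 99.5 ± 10.2 in H929 (n = 3 each) and 84.3 ± 6.97 in MM1S (n = 2), of which the lower 2 did not differ beyond their spread (adjusted p = 0.104). The change in OPM2 exceeded that in MM1S by 0.60 ± 0.17 (adjusted p = 0.0144) and that in RPMI-8226 by 0.67 ± 0.16 (adjusted p = 0.00342).

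CBFB (Entrez 865, chr16:67029149-67101058, + strand), the shared partner of the 3 RUNX proteins, fell. In H929 it was at 242, 229 and 211 CPM with the EV guide and at 134, 128 and 131 CPM with the IRF4 guide (-0.80 ± 0.07, edgeR adjusted p = 7.82e-11). In MM1S it was at 270 and 261 CPM with the EV guide and at 170, 179 and 154 CPM with the IRF4 guide (-0.66 ± 0.08, adjusted p = 1.39e-07). In both lines all IRF4 guide libraries lay well below the EV libraries.

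In OPM2 the fall of CBFB was smaller, from 261, 257 and 262 CPM to 208, 215 and 228 CPM (-0.26 ± 0.07, edgeR adjusted p = 0.00308), and limma on the deposited log2 RPKM did not call it (-0.15, adjusted p = 0.0559). In RPMI-8226 it was at 410, 442 and 378 CPM against 388, 408 and 377 CPM, overlapping, with no change detected (-0.07 ± 0.07, adjusted p = 0.487). The falls in H929 and MM1S each exceeded those of OPM2 and RPMI-8226, by 0.40 ± 0.11 to 0.73 ± 0.10. RPMI-8226 also had the highest EV level, 410 ± 32.0 CPM, above MM1S (265 ± 6.47) and OPM2 (260 ± 2.50), which did not differ beyond their spread (adjusted p = 0.791), and H929 (227 ± 15.3), with n = 3 except n = 2 in MM1S.

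Levels of different genes were compared per length, on RPKM taken back from the deposited log2 RPKM. The RUNX mRNA of each line had its own makeup. With the EV guide, RUNX2 gave 69.8% ± 0.592 of the summed RUNX1, RUNX2 and RUNX3 RPKM in H929 (SD, n = 3), against 26.8% ± 2.31 in MM1S (n = 2), 17.2% ± 1.16 in OPM2 and 0.911% ± 0.142 in RPMI-8226 (n = 3 each). RUNX3 gave the most in MM1S (59.2% ± 0.732) and RPMI-8226 (70.7% ± 2.84), and RUNX1 the most in OPM2 (46.2% ± 2.78).

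With the IRF4 guide the RUNX3 share was higher in every library than with the EV guide in H929, OPM2 and MM1S. In H929 the RUNX3 share went from 14.7% ± 0.382 to 40.7% ± 1.38 while that of RUNX2 went to 51.7% ± 1.04, and the sum of the 3 genes went from 52.2 ± 3.75 to 123 ± 5.58 RPKM. In OPM2 the RUNX3 share went from 36.6% ± 1.62 to 52.8% ± 2.02, above that of RUNX1 (37.2% ± 2.52), and the sum from 33.5 ± 2.17 to 61.5 ± 1.02 RPKM (n = 3 each). In MM1S the RUNX3 share was 58.7% and 59.7% with the EV guide and 60.9%, 64.7% and 65.1% with the IRF4 guide, a smaller step. RUNX3 itself did not rise there, at 29.1 RPKM with the EV guide and 28.7 with the IRF4 guide (from the mean log2 RPKM). RUNX2 was at 13.1 and 10.3 RPKM. In RPMI-8226 the RUNX3 share overlapped between the guides, at 71.1% ± 2.49 with the IRF4 guide.

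CBFB moved the other way in H929, from 70.7 ± 3.41 to 43.0 ± 0.827 RPKM, so that its level passed from above to below the summed RUNX level. In MM1S, CBFB went from 86.6 ± 2.32 to 54.3 ± 3.78 RPKM while the RUNX sum was at 49.1 ± 1.36 and 45.2 ± 1.92 RPKM. In OPM2 it stayed above the RUNX sum (80.5 ± 1.30 and 72.4 ± 3.06 RPKM), and in RPMI-8226 it was at 128 ± 9.02 and 132 ± 6.60 RPKM, over a RUNX sum of 37.4 ± 1.96 and 32.5 ± 3.70. These shares are descriptions, since 3 libraries against 3 cannot reach p under 0.10 in an exact test, and mRNA levels do not give protein amounts.

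**Figure D2:**
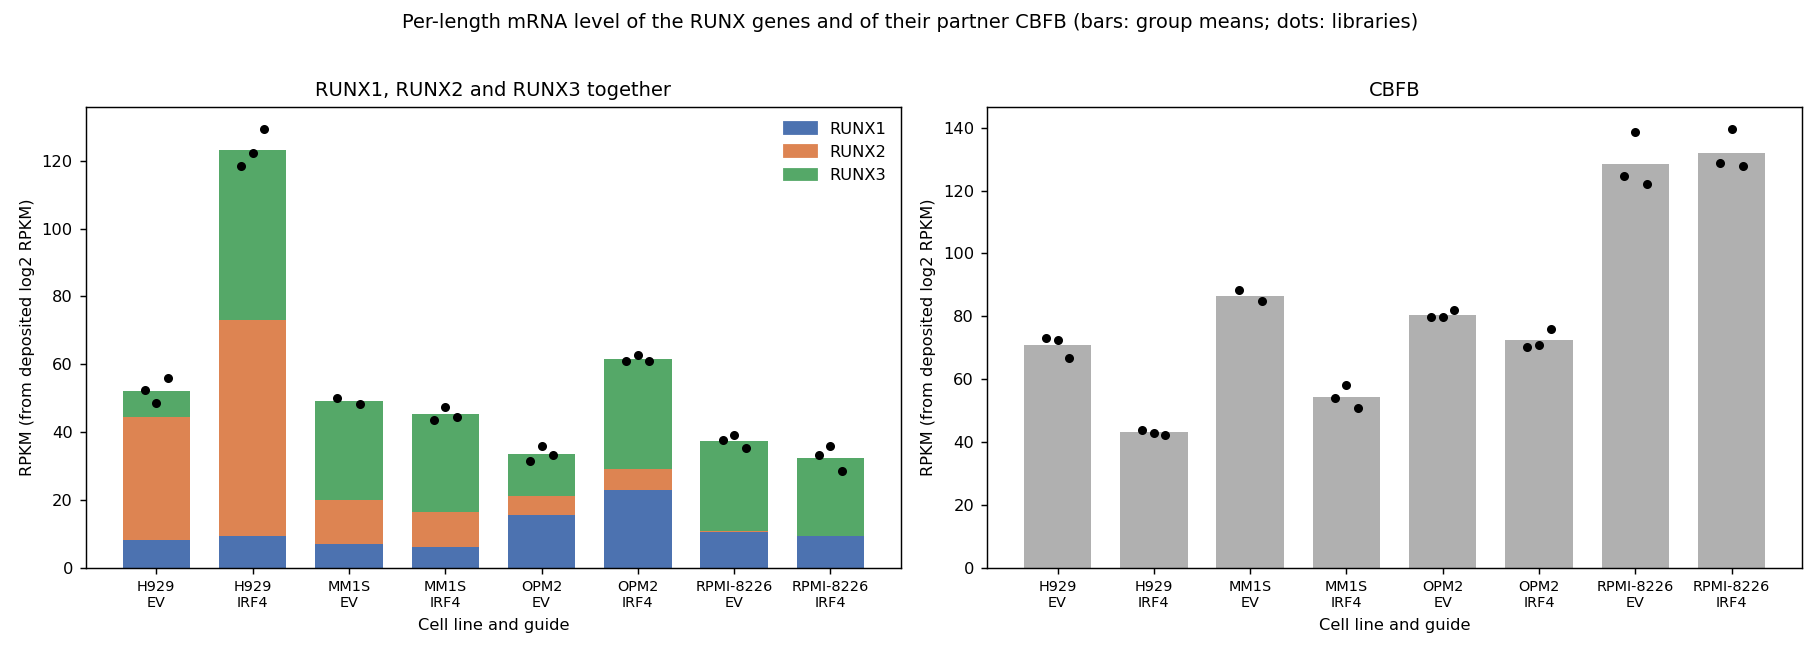
Summed RPKM of RUNX1, RUNX2 and RUNX3 (left, stacked bars of group means with dots for the sum in each library) and RPKM of CBFB (right, bars with dots for libraries) in the 8 groups. In H929 the RUNX sum goes from 52.2 to 123 RPKM between the guides and CBFB from 70.7 to 43.0 RPKM.

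ETS1 (Entrez 2113, chr11:128458765-128587558, - strand), the ETS factor that restrains plasma cell formation, rose in H929 and OPM2. In H929 it was at 34.0, 22.5 and 25.4 CPM with the EV guide and at 151, 127 and 118 CPM with the IRF4 guide (2.24 ± 0.17, edgeR adjusted p = 5.92e-10). In OPM2 it was at 130, 111 and 107 CPM with the EV guide and at 221, 231 and 154 CPM with the IRF4 guide (0.80 ± 0.16, adjusted p = 0.000343). No library of 1 guide reached those of the other in either line, although OPM2 IRF4 replicate 3 was much nearer the EV libraries than the other 2.

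In MM1S, ETS1 overlapped between the guides, at 117 and 98.4 CPM against 151, 132 and 105 CPM (0.28 ± 0.18, edgeR adjusted p = 0.265). In RPMI-8226 it was low in all 6 libraries, at 5.47, 5.24 and 4.94 CPM against 4.35, 3.55 and 4.94 CPM, with no change detected (-0.31 ± 0.25, adjusted p = 0.373). There limma on the deposited log2 RPKM gave a called fall (-0.50, adjusted p = 0.0258). EV levels were 116 ± 12.5 CPM in OPM2 (n = 3) and 108 ± 12.9 in MM1S (n = 2), not different beyond their spread (adjusted p = 0.623), then 27.3 ± 6.0 in H929 and 5.22 ± 0.269 in RPMI-8226 (n = 3 each), a 22.2-fold span. With the IRF4 guide H929 thus came to the level that MM1S held with either guide, and the rise in H929 exceeded that in each other line by 1.44 ± 0.23 to 2.55 ± 0.30.

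FLI1 (Entrez 2313, chr11:128685132-128813267, + strand) is the annotated neighbour of ETS1, 97574 bases away on the opposite strand. It rose less than ETS1 in H929, from 258, 261 and 290 CPM to 387, 378 and 435 CPM, without overlap (0.57 ± 0.08, edgeR adjusted p = 1.01e-06). In OPM2 it went from 126, 107 and 122 CPM to 142, 134 and 140 CPM (0.22 ± 0.09, adjusted p = 0.0339), a call that ended without OPM2 IRF4 replicate 1 (0.21, adjusted p = 0.0958) or 3 (0.22, 0.0765) or EV replicate 2 (0.17, 0.146).

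In MM1S, FLI1 was at 181 and 182 CPM with the EV guide and at 206, 202 and 232 CPM with the IRF4 guide, apart but not called (0.23 ± 0.10, edgeR adjusted p = 0.0642). In RPMI-8226 it was at 85.4, 80.9 and 80.3 CPM against 102, 79.0 and 101 CPM (0.19 ± 0.09, adjusted p = 0.0927). IRF4 replicate 2 of RPMI-8226 was the low library. Without it both changes were called, at 0.23 in MM1S (adjusted p = 0.0296) and 0.30 in RPMI-8226 (0.00510). On average FLI1 rose by 0.30 ± 0.04 (adjusted p = 6.64e-07).

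The difference of the FLI1 change between lines was marginal (edgeR adjusted p = 0.0283). It was lost on the log2 RPKM values (0.0853) and without H929 IRF4 replicate 1 (0.0528) or 3 (0.169) or H929 EV replicate 1 (0.0945) or 2 (0.0816). EV levels of FLI1 were ordered as those of RUNX2: 269 ± 17.9 CPM in H929 (n = 3), 182 ± 0.680 in MM1S (n = 2), 118 ± 9.80 in OPM2 and 82.2 ± 2.78 in RPMI-8226 (n = 3 each), with every neighbour different. SENCR, a long noncoding RNA gene inside FLI1 on the other strand, had 0.887% of the counts of FLI1 and rose by 1.33 ± 0.22 in H929, 1.83 ± 0.32 in OPM2 and 1.51 ± 0.31 in RPMI-8226.

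ETS2 (Entrez 2114, chr21:38805183-38824955, + strand), a close relative of ETS1, rose in OPM2 and RPMI-8226. In OPM2 it was at 13.2, 13.4 and 13.3 CPM with the EV guide and at 39.1, 43.2 and 41.7 CPM with the IRF4 guide (1.64 ± 0.12, edgeR adjusted p = 2.85e-12). In RPMI-8226 it went from 82.9, 75.7 and 61.8 CPM to 103, 106 and 94.6 CPM (0.45 ± 0.11, adjusted p = 0.00120). Neither line had overlapping groups.

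In H929, where ETS1 rose most, ETS2 overlapped between the guides at 6.87, 7.38 and 6.94 CPM against 6.33, 7.24 and 8.75 CPM (0.09 ± 0.15, edgeR adjusted p = 0.638). In MM1S it was at 5.20 and 7.36 CPM against 4.53, 4.15 and 6.10 CPM (-0.39 ± 0.20, adjusted p = 0.134), a fall that the log2 RPKM values called (-0.58, 0.00867). The EV level was highest in RPMI-8226 (73.5 ± 10.8 CPM), then OPM2 (13.3 ± 0.0945), H929 (7.06 ± 0.275, n = 3 each) and MM1S (6.28 ± 1.53, n = 2), the last 2 not different beyond their spread (adjusted p = 0.457). RPMI-8226 was thus the line with the highest EV level of ETS2 and the lowest of ETS1. Per length, ETS2 was at 16.3 RPKM and ETS1 at 0.830 RPKM there, against 3.35 and 18.7 RPKM in OPM2 (from the mean log2 RPKM of each EV group).

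ETV6 (Entrez 2120, chr12:11649674-11895377, + strand), the ETS repressor, rose modestly in H929 and OPM2. In H929 it went from 16.9, 16.1 and 18.4 CPM to 22.1, 23.5 and 22.9 CPM (0.40 ± 0.10, edgeR adjusted p = 0.000720), and in OPM2 from 37.7, 33.3 and 36.9 CPM to 59.8, 51.5 and 56.0 CPM (0.63 ± 0.09, adjusted p = 9.21e-07). The groups were apart in both. In MM1S they were just apart, at 43.6 and 43.0 CPM against 50.3, 50.8 and 43.8 CPM, without a call (0.16 ± 0.10, adjusted p = 0.235), and in RPMI-8226 they overlapped at 53.9, 54.5 and 52.9 CPM against 57.0, 47.4 and 53.9 CPM (-0.03 ± 0.09, adjusted p = 0.851). Its EV levels were 53.7 ± 0.816 CPM in RPMI-8226, 43.3 ± 0.473 in MM1S (n = 2), 36.0 ± 2.34 in OPM2 and 17.2 ± 1.16 in H929 (n = 3 in the others), with every neighbour different, and the change differed between lines (F test adjusted p = 0.000379).

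ELF1 (Entrez 1997, chr13:40931919-41061386, - strand), the lymphoid activator, was called higher in 3 lines, and its groups were apart, with the IRF4 guide higher, in all 4. In single lines 24.8% to 34.4% of all genes tested were apart in that direction. The shares of all genes over several lines were not computed. In H929 ELF1 went from 105, 105 and 104 CPM to 215, 222 and 194 CPM (1.01 ± 0.08, edgeR adjusted p = 3.63e-12). In OPM2 it went from 240, 281 and 271 CPM to 299, 308 and 319 CPM (0.23 ± 0.08, adjusted p = 0.0155). In RPMI-8226 it went from 143, 142 and 130 CPM to 169, 149 and 174 CPM (0.24 ± 0.08, adjusted p = 0.0145).

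In MM1S, ELF1 was at 164 and 171 CPM with the EV guide and at 208, 176 and 181 CPM with the IRF4 guide, without a call (0.17 ± 0.09, edgeR adjusted p = 0.133). The 2 small calls depended on single libraries. That in OPM2 ended without IRF4 replicate 3 (0.21, adjusted p = 0.0589) or EV replicate 1 (0.16, 0.125). That in RPMI-8226 ended without IRF4 replicate 1 (0.22, 0.0567) or 3 (0.18, 0.105) or EV replicate 3 (0.21, 0.0684). H929 exceeded each other line in its change, by 0.76 ± 0.11 to 0.83 ± 0.12, and had the lowest EV level (105 ± 0.440 CPM), below RPMI-8226 (138 ± 7.02), MM1S (167 ± 4.95, n = 2) and OPM2 (264 ± 21.2, n = 3 in the others), with every neighbour different. WBP4, a splicing factor gene that starts 123 bases from ELF1 on the opposite strand, fell in H929 (-0.58 ± 0.15, adjusted p = 0.00157) and OPM2 (-0.33 ± 0.13, 0.0333).

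GABPA (Entrez 2551, chr21:25734972-25772460, + strand) encodes the DNA-binding chain of GABP, an ETS factor of nuclear genes for mitochondria, and overlapped between the guides in 3 lines. In H929, 65.4, 51.5 and 49.7 CPM with the EV guide overlapped 59.8, 55.8 and 53.0 CPM with the IRF4 guide (0.01 ± 0.10, edgeR adjusted p = 0.956). In OPM2, 58.4, 57.8 and 55.1 CPM overlapped 47.7, 53.7 and 59.4 CPM (-0.09 ± 0.10, adjusted p = 0.517), and in RPMI-8226, 72.2, 78.2 and 63.8 CPM overlapped 75.2, 70.5 and 75.6 CPM (0.04 ± 0.10, adjusted p = 0.815). No difference between lines was detected (F test adjusted p = 0.223).

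In MM1S alone GABPA was called lower, from 77.2 and 70.2 CPM to 62.5, 64.4 and 51.0 CPM (-0.30 ± 0.12, edgeR adjusted p = 0.0439). The call ended without MM1S IRF4 replicate 3 (-0.22, adjusted p = 0.186), MM1S EV replicate 2 (-0.23, 0.305) or 3 (-0.37, 0.0705), or RPMI-8226 EV replicate 1 (-0.31, 0.0501). EV levels formed 2 pairs of lines that did not differ beyond their spread, MM1S (73.7 ± 4.94, n = 2) with RPMI-8226 (71.4 ± 7.23) and OPM2 (57.1 ± 1.78) with H929 (55.5 CPM, n = 3 each). ATP5PF, which encodes a subunit of ATP synthase, shares the start of GABPA on the opposite strand and had 153% of its counts, so reads of that overlap cannot be told apart; it fell in H929 (-0.39 ± 0.13, adjusted p = 0.0118) and OPM2 (-0.35 ± 0.12, 0.0245).

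**Figure D3:**
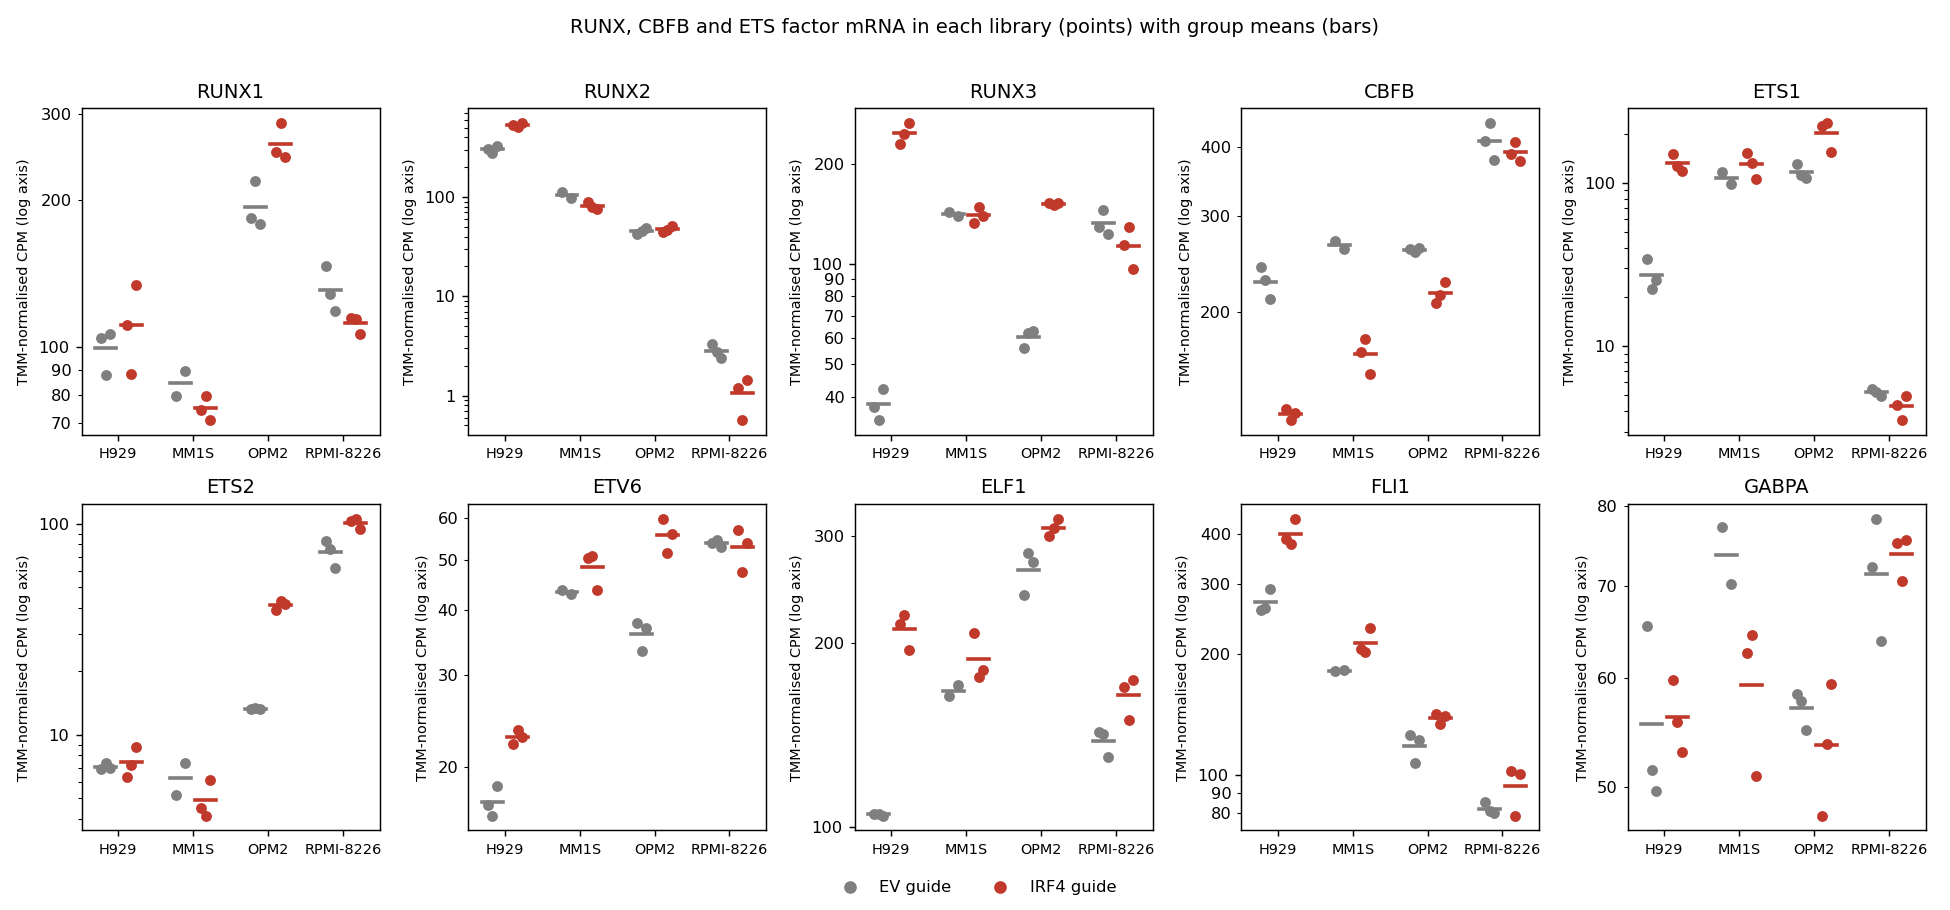
CPM on a log axis (vertical) of the 10 genes, 1 panel each, in the 4 lines (horizontal), with a point per library and a bar at each group mean, grey for the EV guide and red for the IRF4 guide. RUNX3 in H929 moves from 34.1 to 42.3 CPM up to 230 to 265 CPM, and RUNX2 spans from 302 CPM in H929 to 2.83 CPM in RPMI-8226 with the EV guide.

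Per length and with the EV guide, CBFB was the highest of the 10 genes in every line, from 70.7 RPKM in H929 to 128 RPKM in RPMI-8226 (from the mean log2 RPKM). FLI1 came next in H929 (56.4 RPKM) and MM1S (40.1 RPKM), and ELF1 in OPM2 (53.8 RPKM) and RPMI-8226 (28.4 RPKM). ETS2 was the lowest in H929, MM1S and OPM2 (1.65, 1.44 and 3.35 RPKM), and RUNX2 in RPMI-8226 (0.338 RPKM). In H929 the order changed with the IRF4 guide, where CBFB (43.0 RPKM) stood below FLI1 (83.9), RUNX2 (63.7), RUNX3 (50.1) and ELF1 (44.8).

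Further ETS genes were taken from a list for comparison. Of 22 further ETS genes 16 were tested, and on average 7 rose and 2 fell, where 32.6% of all genes were called higher and 25.1% lower. Their median log2 fold change, with genes at 0 counts in a group set to their bound from a floor of 3 counts per group and genes at or under it in both groups left out, was 0.20 in RPMI-8226, 0.31 in OPM2, -0.02 in MM1S and 0.16 in H929, against 0.05, 0.04, 0.09 and 0.12 over all genes. On the deposited log2 RPKM that median, without bounds, was 0.16 in OPM2 and 0.09 in H929. SPIB, an ETS factor of B cells, rose in all 4 lines, by 0.94 ± 0.27 in MM1S to 3.52 ± 0.24 in OPM2 (2.13 ± 0.12 on average, edgeR adjusted p = 4.16e-15). SPI1, which encodes the myeloid and B cell factor PU.1, also rose in all 4, by 0.66 ± 0.13 in RPMI-8226, 1.79 ± 0.17 in MM1S and 2.69 ± 0.17 in H929, while in OPM2 few counts set its levels of 0.0147 and 0.251 CPM. ELF4, a close relative of ELF1, rose in H929 (1.16 ± 0.12) and OPM2 (2.73 ± 0.25) and was at -0.30 ± 0.15 in MM1S and 0.22 ± 0.12 in RPMI-8226, neither called. The genes that fell were ETV4 (-0.89 ± 0.11), a factor of growth signalling, and ETV1 (-0.30 ± 0.12, named here because only 2 fell). ETV1 was called lower in MM1S only, at 1.22 CPM with the EV guide and 0.401 CPM with the IRF4 guide (-1.54 ± 0.41), and was called higher in OPM2 (0.40 ± 0.13, adjusted p = 0.0127).

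Among partners and corepressors, 20 of 21 genes were tested and 10 rose and 2 fell on average, where 32.6% and 25.1% of all genes did, with a median change of 0.12, near that of all genes. The acetyltransferases CREBBP and EP300, coactivators of RUNX and ETS proteins, rose by 0.50 ± 0.03 and 0.31 ± 0.03. TLE3, a corepressor that RUNX proteins bind, rose in H929 (1.03 ± 0.08), MM1S (0.57 ± 0.09) and OPM2 (0.57 ± 0.08) and fell in RPMI-8226 (-0.33 ± 0.08). PRMT1, a methyltransferase that modifies RUNX1, fell in all 4 lines (-0.77 ± 0.06 on average, edgeR adjusted p = 3.93e-12). GABPB1, which encodes the partner of GABPA and was singled out after its values were seen, was the other gene that fell. It fell in each line, by 0.37 ± 0.09 on the log2 scale in H929 and 0.51 ± 0.09 in OPM2 (-0.41 ± 0.05 on average, adjusted p = 5.90e-09), while GABPA was called in MM1S only.

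Of 20 genes known as RUNX targets in blood cells, 14 were tested, and on average 8 rose and 2 fell, where 32.6% and 25.1% of all genes did. Their median with such bounds was 0.37 in RPMI-8226, 1.45 in OPM2, 0.91 in MM1S and 1.61 in H929. On the deposited log2 RPKM it was lower, at 0.10 in RPMI-8226, 1.01 in OPM2, 0.36 in MM1S and 1.33 in H929. In H929 11 rose and 1 fell, where 32.9% of all genes rose and 26.1% fell. In MM1S 5 rose and 1 fell (19.4% and 15.2% of all genes), in OPM2 6 and 0 (23.3% and 20.2%), and in RPMI-8226 6 and 2 (19.2% and 14.7%). With limma on the log2 RPKM the counts were 8 and 1 in H929, 5 and 1 in MM1S, 7 and 0 in OPM2 and 3 and 3 in RPMI-8226. ITGAL, the integrin chain of LFA-1, rose in all 4 lines, from 779 to 1872 CPM in H929 and from 29.1 to 205 CPM in OPM2 (1.43 ± 0.07 on average). PRF1, the pore-forming protein of killer cells, rose in H929 from 1.80 to 41.8 CPM (4.49 ± 0.23) and in OPM2 from 0.118 to 8.96 CPM, and no change was detected in MM1S and RPMI-8226 (adjusted p = 0.429 and 0.877). ZBTB7B, the factor of helper T cells, rose in H929, MM1S and RPMI-8226 (0.66 ± 0.05 on average). ITGAE (-0.47 ± 0.07) and GFI1 (-0.54 ± 0.06), named because only 2 fell, were the lower ones. The list shares SPI1 with the other ETS genes above and CD79A with the list that follows. The filter could keep a gene on the counts of 1 group alone, so a gene silent with the EV guide could enter through its rise. This can raise the counts of rises and the medians, here and in the other lists of low genes.

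Of 22 genes known as ETS targets in blood cells, 14 were tested, and 9 rose and 0 fell on average (edgeR), where 32.6% and 25.1% of all genes did, against 9 and 2 with limma on the deposited log2 RPKM. Their median with such bounds was 1.23 in RPMI-8226, 1.04 in OPM2, 0.68 in MM1S and 1.62 in H929, and on the log2 RPKM 0.61, 0.50, 0.29 and 1.27. In H929 9 rose and 1 fell (32.9% and 26.1% of all genes), in MM1S 2 and 1 (19.4% and 15.2%), in OPM2 7 and 0 (23.3% and 20.2%), and in RPMI-8226 8 and 1 (19.2% and 14.7%), so the MM1S count is near the background. On the log2 RPKM these counts were 7 and 1, 1 and 1, 6 and 1, and 5 and 1. IL2RG, the common chain of several cytokine receptors, rose in H929, OPM2 and RPMI-8226, in OPM2 from 0.286 to 14.9 CPM, and was at 342 and 500 CPM in MM1S without a call (0.55 ± 0.21, adjusted p = 0.0526). ITGB2, the partner chain of ITGAL, rose from 0.565 to 8.39 CPM in H929 and from 2.22 to 15.5 CPM in RPMI-8226. BCL2, which blocks cell death, rose in H929 (1.12 ± 0.11) and RPMI-8226 (0.42 ± 0.10), and GP1BA, a platelet receptor chain, rose from 0.426 to 1.01 CPM in OPM2. The limit of the filter given for the RUNX targets holds for these counts and medians too.

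The bone genes that RUNX2 drives in osteoblasts were mostly near the floor of detection. Of 10 such genes 9 were tested, and on average 5 rose and 1 fell, where 32.6% and 25.1% of all genes did. In H929 5 rose and 2 fell (32.9% and 26.1% of all genes), in MM1S 1 and 0 (19.4% and 15.2%), in OPM2 5 and 1 (23.3% and 20.2%), and in RPMI-8226 0 and 2 (19.2% and 14.7%). MMP9, a secreted protease, went from 1.69 to 31.3 CPM in MM1S. SPP1, the bone matrix protein osteopontin, was abundant in RPMI-8226 alone, where it fell from 517 to 352 CPM (-0.56 ± 0.11, edgeR adjusted p = 0.000295). VEGFA, a vessel growth factor, was the gene that fell on average (-0.45 ± 0.08), and PHEX, an endopeptidase of bone, rose from 0.143 to 1.07 CPM in OPM2.

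Of 12 mitochondrial genes known as GABP targets, all 12 were tested, and on average 0 rose and 8 fell (edgeR), where 32.6% and 25.1% of all genes did, with a median of -0.23 against 0.11 over all genes; with relative log expression or upper quartile scaling or on the log2 RPKM values 1 rose and 8 fell. H929 had 8 that fell, where 26.1% of all genes did, OPM2 7 (20.2%) and RPMI-8226 4 (14.7%). MM1S had 2 that fell (15.2%) and 1 that rose (19.4%), near the background, and on the log2 RPKM 4 that fell. TFAM, the packaging and transcription factor of mitochondrial DNA, fell in all 4 lines, from 89.4 to 43.5 CPM in H929 and by 0.55 ± 0.04 on the log2 scale on average (adjusted p = 1.20e-12). SDHB, a subunit of respiratory complex II, changed by -0.43 ± 0.04 on average, MTERF3, a regulator of mitochondrial transcription, by -0.63 ± 0.07 and ATP5F1B, the catalytic chain of ATP synthase, by -0.26 ± 0.03, all called lower.

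Genes with the most similar pattern were ranked by Pearson's r of log2 level over the 8 group means, which share their libraries, as a description. For RUNX2 these were IGSF8, SMAD7 and PPP3CB (r = 0.997, 0.996 and 0.996), for ETS1 FAM160A2, MEF2C and PDGFC (0.993, 0.992 and 0.990), and for FLI1 NFU1, CCDC88C and WIPI1 (0.993, 0.990 and 0.989). MEF2C, a B cell transcription factor, ran from 186 to 1176 CPM. For CBFB they were ITGB3BP, ALG8 and UPF3B (0.995, 0.992 and 0.992), for RUNX1 CD81-AS1, GON7 and SPPL3 (0.984, 0.980 and 0.979), and for ETS2 GPSM1, TMEM176B and MIR622 (0.989, 0.986 and 0.986). For ETV6 they were NUDT16, RIN2 and ZNF75A (0.983, 0.979 and 0.975), for ELF1 MED29, ABR and PRMT9 (0.980, 0.979 and 0.975), and for GABPA UBE2NL, MIR93 and SOAT1 (0.982, 0.961 and 0.949). RUNX3 had the least similar companions, PIK3R1, CARD16 and TOB1 (0.926, 0.924 and 0.921). Of these genes CD81-AS1 (0 to 0.527 CPM), MIR622 (0 to 0.581), UBE2NL (0.279 to 0.534) and MIR93 (0.0589 to 0.418) were near the floor of detection, so that few counts set their r.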

How the data were processed

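Total RNA was sequenced from 23 libraries of 4 cell lines. The authors deposited raw counts per gene in 1 table and log2 RPKM values (length- and depth-scaled reads) for 16220 genes, per the file headers. Subread, featureCounts and limma with the GRCh38 (hg38) genome are named in the submitters' processing notes, with versions, strand setting and further normalization of the log2 RPKM not given in the sources used here. Entrez genes without a symbol (490) stayed in the table. Counts were tested in R 4.3.3 with edgeR 4.0.16: filterByExpr by group, TMM scaling, 1 robust quasi-likelihood model with 8 group means, Benjamini-Hochberg adjustment within each contrast over 16468 genes, calls at an adjusted p under 0.05. Alternatives were RLE (relative log expression) and upper quartile scaling, no filter, at least 1 CPM in 3 libraries, DESeq2 1.42.0, the log2 RPKM with limma 3.58.1, replicate blocks, each line fitted alone, and each library left out. Depth, 6907390 to 28486960 counts, limits low genes. The script was tested on simulated counts. Named were all 10 genes, IRF4, up to 4 called genes per list with the smallest adjusted p on average, the top marker of other cells, overlapping or nearest genes where measured, and the 3 most alike genes. The genes, the 177 list entries, all found by symbol, and the tests were chosen with earlier results of these data known.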

Additional observations from a re-analysis of the deposited data

Results flagged for a closer look

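The guide effect differed between the 4 lines, by the edgeR F test of the 4 within-line changes, for 9 of the 10 genes. The adjusted p was 1.85e-16 for RUNX3 (2.69 in H929 and -0.23 in RPMI-8226), 4.57e-09 for RUNX2 (0.82 in H929 and -1.47 in RPMI-8226) and 0.00336 for RUNX1 (0.43 in OPM2 and -0.23 in RPMI-8226). It was 1.35e-06 for CBFB (-0.80 in H929 and -0.07 in RPMI-8226). Among the ETS genes it was 8.72e-09 for ETS2 (1.64 in OPM2 and -0.39 in MM1S), 1.14e-06 for ETS1 (2.24 in H929 and -0.31 in RPMI-8226) and 4.50e-07 for ELF1 (1.01 in H929 and 0.17 in MM1S). It was 0.000379 for ETV6 (0.63 in OPM2 and -0.03 in RPMI-8226) and 0.0283 for FLI1 (0.57 in H929 and 0.19 in RPMI-8226), the latter lost under 5 alternatives. Of all genes tested, 48.0% differed between lines.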

How the results depend on the processing

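Over 70 results of the 10 genes (7 contrasts each), 2154 of 2200 alternatives kept the side of the threshold, 33 lost a call and 13 gained one, and 55 results kept their side under every alternative run. No called change turned direction. Of the 50 results with a direction, 9 changed sign in 17 of 1590 alternatives, none called in either, from changes of -0.07 to 0.16: RUNX1 in H929 and on average, RUNX2 in OPM2, RUNX3 in MM1S, CBFB and ETV6 in RPMI-8226, ETS2 in H929 and GABPA in H929 and RPMI-8226. Leaving out each library in turn gave 7 to 8 called genes in H929, 1 to 4 in MM1S, 6 to 8 in OPM2, 2 to 5 in RPMI-8226, 8 to 8 on average, 8 to 9 for the difference between lines and 10 to 10 for the EV levels. The other alternatives gave 7 to 7, 3 to 4, 7 to 8, 4 to 6, 8 to 8, 8 to 9 and 10 to 10. The replicate numbers were not taken as pairs: deviations of same-numbered libraries correlated at 0.0256 to 0.183 over 11 pairs, 6 of them over 0.1, although all 11 correlated best with their own number, a hint from the data and not the design. A replicate block common to the lines gave 7, 4, 8 and 5 called genes in H929, MM1S, OPM2 and RPMI-8226, and a block within each line 7, 4, 8 and 6. Both blocks called FLI1 in MM1S (0.22 and 0.25, adjusted p = 0.0255 and 0.0120) and in RPMI-8226 (0.18 and 0.18, 0.0374 and 0.0297), and the second called RUNX1 in RPMI-8226 (-0.23, 0.00622). EV levels could not be tested with the block within lines, nor differences between lines with each line fitted alone. On the log2 RPKM values the median over all genes in H929 was -0.07 in place of 0.10, in OPM2 -0.08 in place of 0.03, and on average -0.03 in place of 0.11. The share of higher genes among those called then went from 55.7% to 45.6% in H929 and from 56.5% to 46.2% on average. Depth limits RUNX2 in RPMI-8226, at 14 to 81 counts per library.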
